A study of Mus musculus with 14 samples.

Results

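The data described here are the transcriptome of thymic natural killer T (NKT) cells in vehicle-injected mice, read from 5 of the 14 libraries of the series. NKT cells are T cells whose receptor recognises lipids held by CD1d, an antigen-presenting protein related to MHC class I. They are selected in the thymus by CD1d on immature thymocytes and leave selection already equipped to release cytokines. PLZF, encoded by Zbtb16, sets this innate programme, and the mature cells fall into NKT1, NKT2 and NKT17 subsets, which release interferon gamma, interleukin 4 and interleukin 17 respectively. T-bet (Tbx21) is the regulator of NKT1 cells, and GATA3 (Gata3) is high in NKT2 cells.

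All 5 libraries came from young wild-type (WT) male mice that received vehicle, 8% EtOH, into the peritoneum and were killed 3 days later. Thymi were pressed through a strainer and NKT cells were sorted into lysis buffer. The libraries were prepared by bulk MARS-seq, which counts the 3′ end of polyadenylated transcripts. The other 9 libraries came from dexamethasone-treated mice and are not compared here. The labels do not give the gate used for sorting, nor whether a replicate was 1 mouse or a pool, so the spread between replicates may be technical. Levels are in CPM, counts scaled to a total of 1000000 per library, after TMM scaling over the 5 libraries, given as mean ± SD with n = 5, and since 1 transcript end is counted per fragment a level does not grow with transcript length. Levels of different genes still depend on how well each 3′ end is annotated and on near-identical copies, so the order of genes is approximate.

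The 5 libraries held 975704 to 2075837 counts over 10303 listed genes, and 9748 to 10137 genes had a count in a library. Every listed name reached at least 6 counts in some library of the whole series, so shares are of listed genes and not of all genes. List members absent from the table are left out of each list's share. A count was worth 0.48 to 1.05 CPM, and 9398 genes (91.2%) had a count in all 5 libraries. A mean of at least 20 CPM was reached by 4942 genes (48%) and one of at least 100 CPM by 1559 (15.1%), and the median listed gene stood at 18.3 CPM. Replicate 3 stood apart from the rest. Its log2 levels correlated at 0.944 to 0.946 with the other libraries (Pearson's r across genes of at least 20 CPM, a description of these libraries), against 0.968 to 0.976 among the other 4. On the first principal component, with 45.5% of the variance, replicate 3 scored 25.5 and the others −7.51 to −5.21. Spread that rests on replicate 3 is therefore given with and without it for some of the genes described. Where no such value is given, the mean and SD include replicate 3. The spread of a gene between libraries is given as the excess coefficient of variation (CV), the CV left after the part expected from counting is taken away. That expectation covers counting error only, since amplified reads need not be separate molecules.

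The label was checked against marker genes. Of the 17 listed genes of an NKT identity list, 14 reached 20 CPM (82.4%, against 48% of all listed genes), among them chains of the CD3 complex, Zbtb16, Il2rb, Klrb1c and Cxcr3. The list also holds genes of T cells in general, such as those of CD3. Of 13 listed genes of conventional single-positive T cells 9 reached 20 CPM (69.2%). These shares therefore do not separate NKT cells from other T cells. The NK1.1 gene Klrb1c, whose product is the NK lectin used to define mature NKT cells in strains that carry it, was counted at 223, 218, 211, 215 and 192 CPM in replicates 1 to 5. No library stood out, and little of the spread was beyond counting. T cell receptor constant and variable segments were not analysed here, so the semi-invariant receptor itself was not read.

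Genes of protein synthesis filled the top of the listed genes. Mitochondrially encoded genes were not among the listed genes, so ranks and shares of counts leave them out. Of the 20 most abundant genes 18 encode cytosolic ribosomal proteins, and 85 listed ribosomal protein genes took 30.6% to 32.1% of a library's counts. Rplp1, a protein of the ribosomal stalk, led with 22290.2, 23630.5, 16507, 20094 and 22645 CPM in replicates 1 to 5, of which replicate 3 was the lowest. Rpl13a followed at 13467 ± 1489 CPM, Rps2 at 11155 ± 2937, Rps14 at 11094 ± 1056 and Rpsa at 9205 ± 594. Others of the top 20 ran from Rps12 (9098 CPM), Rpl12, Rps13, Rplp2, Rps18, Rps15, Rpl41, Rps10, Rplp0 and Rpl36 down to Rps29 (6225 CPM). Of the 85 genes, 61 exceeded 1000 CPM and their median was 2904 CPM, while the lowest stood at 2.24 CPM. Many ribosomal protein genes share sequence with pseudogenes, so the levels of single members are uncertain.

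The other 2 genes of the top 20 were Tpt1 and Cfl1. Tpt1, which encodes the translationally controlled tumour protein, was at 7103, 8088, 11129.9, 5748 and 6483 CPM in replicates 1 to 5. Cfl1, which encodes cofilin, a severing factor of actin filaments, was at 6904, 8340.4, 4851, 7446 and 8492 CPM. Tpt1 was highest and Cfl1 lowest in replicate 3, so that Tpt1 exceeded Cfl1 in only 2 of the 5 libraries and their order cannot be told.

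The capped start of ribosomal protein transcripts usually carries a 5′ terminal oligopyrimidine (TOP) run, a C followed by pyrimidines, through which mTOR signalling governs their translation. Windows of 30 bases around the annotated start are shown because this class is the most abundant among the listed genes. They are from RefSeq (GRCm38.p6, the sequence of mm10), on the transcript's strand, and begin 10 bases before the annotated first base. Capitals mark the pyrimidine run that follows the first C with 4 pyrimidines behind it within 5 bases of that first base.
Rpl13a: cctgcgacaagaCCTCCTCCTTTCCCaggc
Rps6: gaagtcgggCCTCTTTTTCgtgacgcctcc
Gnb2l1: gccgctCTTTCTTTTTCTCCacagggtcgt
Rps2: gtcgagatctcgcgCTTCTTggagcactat
Rpl10: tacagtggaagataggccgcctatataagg
Cfl1: cgcggcaagcgccggaaggccgccccgccc
Gapdh: agagggaggaggggaaatgagagaggccca

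The windows lie at chr7:45128726-45128755, minus strand (Rpl13a), chr4:86857348-86857377, minus strand (Rps6), chr11:48800350-48800379, plus strand (Gnb2l1, now named Rack1), chr17:24720053-24720082, plus strand (Rps2), chrX:74270806-74270835, plus strand (Rpl10), chr19:5490445-5490474, plus strand (Cfl1) and chr6:125165754-125165783, minus strand (Gapdh). Such a run lay near the start of 25 of the 55 ribosomal protein genes of at least 20 CPM with a promoter entry (45.5%). It lay there in 24.5% of the 3970 genes of at least 20 CPM with an entry and in 21.2% of all 27025 genes. The ribosomal protein gene Rpl10 (912 ± 461 CPM) had none in the window shown, and Cfl1 and Gapdh, among the most abundant genes outside the class, had none either. Only bases near the annotated start were searched, so a gene with no match here may still begin with such a run.

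Outside the ribosome, the most abundant genes included those of MHC class I and of the cytoskeleton. These genes were chosen after their values were seen. Actb stood at 5015 ± 692 CPM, Ly6e at 4755 ± 317, the class I heavy chains H2-D1 and H2-K1 at 3880.1 ± 464 and 3667 ± 384, and their light chain B2m at 1972 ± 287. The surface antigen gene Cd52 stood at 3454 ± 330.4 and Ptprcap, a partner of CD45, at 3404 ± 448 CPM. The glycolytic enzyme gene Gapdh (3301 ± 865), Coro1a, an actin regulator of T cells (2607 ± 325), and Ucp2, a mitochondrial carrier (2393 ± 630.1), came after them. Gapdh and Ucp2 were lowest in replicate 3, at 0.535 and 0.507 of the mean of the other 4 libraries. Their excess CVs were 0.262 and 0.263, and 0.132 and 0.1 without that library.

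Within a list of 55 lineage regulators, which leaves out AP-1 factors such as Junb, inhibitors of E proteins came first. Of these, 41 reached 20 CPM (74.5%, against 48% of all listed genes) and 12 reached 100 CPM. An excess CV of 0.3 was reached by 8 of the 41, against 7.55% of all such genes. Without replicate 3 it was reached by 1, against 3.3% of all such genes. Id2, which holds E proteins off DNA and is needed for innate-like lymphocytes, was at 848, 1135, 1783, 1004 and 1165 CPM in replicates 1 to 5. Its relative Id3, an early target of T cell receptor signalling, was at 411, 401, 330.1, 390.0 and 415 CPM. Id2 was above Id3 in all 5 libraries and their ranges did not overlap, with replicate 3 the highest library for Id2 and the lowest for Id3.

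Below Id3 the order was less firm. Nfatc1, an effector of calcium signalling, was at 217 ± 33.8 CPM, Ets1 at 206 ± 94.8, Myc at 205 ± 39.1 and Runx3, a partner of T-bet, at 183 ± 21.7. Ets1 had 204, 156, 371, 155 and 145 CPM in replicates 1 to 5, with replicate 3 the highest, and without that library its mean was 163 ± 26.1 CPM.

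The regulators of NKT1 and NKT2 cells were ranked alike in every library. Tbx21 (chr11:97098071-97115331 in mm10, the NKT1 regulator) was counted at 164, 148, 189.6, 203 and 196 CPM in replicates 1 to 5. Gata3 (chr2:9857078-9890034, the NKT2 regulator) was counted at 96.5, 80.8, 144, 88.6 and 71.9 CPM. Their ranges did not overlap, and Tbx21 exceeded Gata3 by 1.32 to 2.72 times within a library.

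Zbtb16 itself (chr9:48654297-48836222) was of middle rank, number 2307 of the listed genes. It was counted at 76.4, 72.4, 39.5, 76.7 and 61.6 CPM, lowest in replicate 3, and without that library its mean was 70.9 ± 6.95 CPM with no spread beyond counting. Its range overlapped those of Gata3, of Lef1 (63.9 ± 6.91 CPM) and of Tcf7 (53.6 ± 20.8 CPM), the latter 2 being HMG-box factors of T cell development. Gata3 was above Zbtb16 in each library, whereas Zbtb16 was above Lef1 in 3 of 5.

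Regulators of T cell fate and quiescence filled the middle of the list. Zbtb7b, which encodes the CD4-lineage factor ThPOK, was at 112 ± 10.1 CPM, Nr4a1, a readout of receptor signalling, at 117 ± 22.4 and Tox, needed for CD4-lineage and NKT cell development, at 90.7 ± 19.6. Hopx (72.5, 128, 227, 72.5 and 115 CPM in replicates 1 to 5) and Klf2 (38.9, 88.1, 152, 79.2 and 74.1), a factor of T cell egress, had excess CVs of 0.508 and 0.466, with replicate 3 the highest for both, and of 0.284 and 0.291 without it. Stat4 (36.8 ± 6.62 CPM), which relays interleukin 12, Irf4 (21.4 ± 6.04) and Egr2 (10.6 ± 2.11), needed for NKT cell development, were lower. The type 17 factors Maf and Rora stood at 6.83 ± 4.29 and 2.29 ± 0.565 CPM. Eomes was not analysed here. The glucocorticoid receptor gene Nr3c1 was at 59.5, 73.4, 92.9, 64.2 and 88.0 CPM in replicates 1 to 5, all above 20 CPM.

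**Figure D1:**
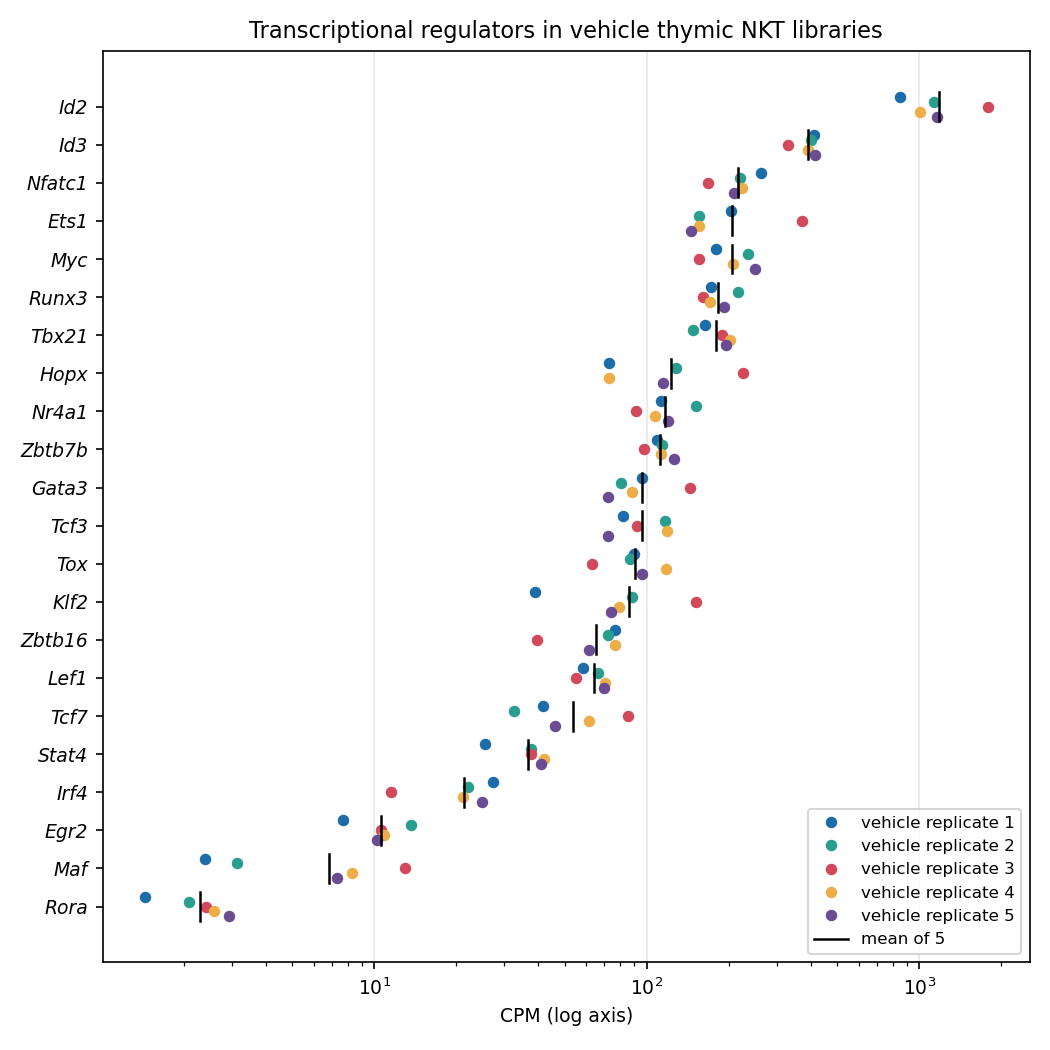
Level of 22 transcriptional regulators in each vehicle library, in CPM on a log axis, 1 point per library and a bar at the mean of the 5. Id2 leads, Tbx21 lies above Gata3 and Zbtb16, and Maf and Rora lie below 14 CPM in every library.

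The summed level of the 3 subset lists fell in the order NKT1, NKT2, NKT17. The NKT1 list, of T-bet targets and NK-type genes, summed to 9136, 9892, 9853, 9291 and 10268 CPM in replicates 1 to 5. The NKT2 list summed to 4199, 4394, 3603, 4306 and 4442 CPM, lowest in replicate 3. The NKT17 list summed to 879.8, 798, 828, 759 and 789 CPM. The NKT1 sum was 2.33 ± 0.237 times the NKT2 sum (2.16 to 2.73, and at most 2.31 in the libraries other than replicate 3), and the NKT2 sum 5.19 ± 0.591 times the NKT17 sum. These ratios depend on which genes each list holds, and in bulk cells they cannot tell apart more cells of a subset from more RNA per cell. They also rest on a few members: 5 genes made 67.9% of the NKT1 sum and 3 made 76.2% of the NKT2 sum. The median member stood at 87.2 CPM in the NKT1 list and at 68.4 CPM in the NKT2 list. By count of members, 23 of 30 listed NKT1 genes, 16 of 20 NKT2 genes and 7 of 20 NKT17 genes reached 20 CPM, against the 48% of all listed genes.

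The NKT1 list was led by Ctsw, a cathepsin of cytotoxic cells (1984 ± 331 CPM), Nkg7, a granule membrane protein (1219 ± 258), Id2, Ccl5, Ly6c2 (1081 ± 152) and Il2rb. The NKT2 list was led by Ltb and by Izumo1r, which encodes folate receptor 4, at 1399, 1488, 992, 1437 and 1417 CPM in replicates 1 to 5. Izumo1r was lowest in replicate 3 and within 1399 to 1488 CPM in the others. Pdcd1, the PD-1 gene, was at 159.6 ± 17.9 CPM, Icos at 74.0 ± 12.5 and Plac8 at 71.4 ± 19.8. In the NKT17 list the genes above 100 CPM, S100a4 (219 ± 53.6), Itgb3 (139 ± 36.0), Il7r and Cxcr6, are also expressed by other T cells. The type 17 genes Il17a, Il1r1 and Ccr6 stood below 4 CPM in every library, and Blk, a kinase of interleukin 17-producing T cells, was at 33.1 ± 12.2 CPM.

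A precursor list gave 1088 ± 51.3 CPM in sum, with 11 of 16 members at 20 CPM or more (68.8%, against 48% of all listed genes). Id3 and Dgka, a kinase that limits receptor signalling (231 ± 38.0 CPM), made the larger part of it. Egr1 stood at 36.7 ± 15.6 CPM, Sox4 at 44.8 ± 11.7 and Ldhb at 36.5 ± 12.9. Cd24a, the antigen that marks the earliest NKT cells, was at 1.44, 3.15, 1.44, 5.7 and 1.47 CPM in replicates 1 to 5 and Rag1, of receptor gene recombination, at 0.96, 1.05, 4.81, 4.66 and 6.6, both low in every library.

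The receptor complex and its kinases were among the better expressed gene groups. Of 25 listed genes of T cell receptor signalling 19 reached 20 CPM (76%, against 48%), and their median of 169 CPM compared with 18.3 CPM for all listed genes. Cd3d stood at 913 ± 135 CPM, Cd3e at 606 ± 144, Cd3g at 429 ± 25.3 and the zeta chain gene Cd247 at 169 ± 40.9. Cd3d exceeded Cd3e in all 5 libraries, and Cd3g exceeded Cd247 in all 5. The surface glycoprotein gene Thy1 (1612 ± 354 CPM) and the adaptor gene Lat (971 ± 161) were higher, and Zap70, the kinase recruited to the zeta chain, was even across libraries at 574 ± 43.6. Lck, the kinase that starts signalling, was counted at 1699, 1816, 779.9, 931 and 1872 CPM in replicates 1 to 5, low in replicates 3 and 4 and high in the other 3.

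The coreceptors separated by a wide margin. Cd4 was at 312, 267, 154, 312 and 301 CPM in replicates 1 to 5, lowest in replicate 3. Cd8b1 was at 29.8, 41.9, 25.5, 66.8 and 57.2 CPM and Cd8a at 11.3 ± 4.31, and Cd4 exceeded Cd8b1 by 4.67 to 10.5 times within a library. NKT cells of mice are CD4+ or lack both coreceptors, and CD8 marks thymocytes and CD8 T cells. Cd8b1 was highest in replicates 4 and 5, where the double-positive thymocyte list was also highest, as given below. Cd8b1 is itself a member of that list and made 22.9% of its sum, so this likeness is partly built in.

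Cytokine receptor genes were led by chains of the interleukin 2 and 15 receptors. Of 30 listed genes 20 reached 20 CPM (66.7%, against 48% of all listed genes). Il2rg, the common gamma chain, was at 1628, 1986, 1326, 1906 and 2048 CPM in replicates 1 to 5. Il2rb, the beta chain shared by the receptors of interleukins 2 and 15, was at 548, 438, 689, 663 and 836 CPM, highest in replicate 5 and lowest in replicate 2. Il7r was at 109, 111, 137, 88.6 and 128 CPM, so Il2rb exceeded it by 3.94 to 7.49 times. Il2ra, the high-affinity interleukin 2 receptor chain, had 0.96, 1.05, 0.481, 1.04 and 1.47 CPM, which is 1 to 2 counts a library. Il4ra, the receptor of interleukins 4 and 13, was at 6.35 ± 2.26 CPM.

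Receptors of interleukins 12, 18 and 25 lay at moderate levels. Il17rb, the receptor of interleukin 25 and a mark of NKT2 cells, was at 127, 123, 93.8, 132 and 104 CPM in replicates 1 to 5. Il12rb1 was at 90.0 ± 10.7 CPM, Il18rap at 83.9 ± 12.3 and Il18r1 at 46.7 ± 17.8, the chains through which interleukins 12 and 18 drive interferon gamma. Il18r1 spread the most of these, with an excess CV of 0.363, or 0.296 without replicate 3. It was highest in replicate 3 and lowest in replicate 5. Il17rb was above Il12rb1 in all 5 libraries, though their ranges overlapped, and above Il7r in 3 of 5, so their order was not fixed. Crlf2, a chain of the thymic stromal lymphopoietin receptor (355 ± 39.2 CPM), Il27ra (345 ± 44.1) and Ifngr1 (127 ± 25.4) were also high. The interleukin 33 receptor Il1rl1 was at 2.88, 0, 0.962, 1.04 and 0 CPM, which is 0 to 6 counts a library.

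Of 15 listed receptors for chemokines and lysophospholipids 7 reached 20 CPM (46.7%, near the 48% of all listed genes). S1pr4 led at 275 ± 69.6 CPM, while S1pr1, the receptor for exit from the thymus, stood at 16.9 ± 4.03. Cxcr3, a T-bet target, was counted at 187, 311, 223, 134 and 213 CPM in replicates 1 to 5, highest in replicate 2 and lowest in replicate 4. Cxcr6 was at 61.5, 116, 212, 86.5 and 91.7 CPM, highest in replicate 3 and lowest in replicate 1, and 88.0 ± 22.3 CPM without replicate 3. Ccr10 (95.9 ± 11.3 CPM), Ccr8 (61.7 ± 8.08) and Ccr7 (56.1 ± 16.4), which leads immature NKT cells to the medulla, followed.

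Of 20 listed NK receptor genes 9 reached 20 CPM (45%, near the 48% of all listed genes). With and without replicate 3, 3 of the 9 reached an excess CV of 0.3, against 7.55% and 3.3% of all such genes. Hcst, the DAP10 adaptor of NKG2D, was at 1124 ± 109.5 CPM and Fcer1g at 274 ± 67.4, against 55.5 ± 15.2 for the adaptor Tyrobp. The NKG2D gene Klrk1 was at 62.4 ± 8.48 CPM. The Ly49 genes spread more: Klra9 had 35.5, 125, 71.7, 80.8 and 109 CPM and Klra1 8.16, 37.8, 41.9, 19.2 and 22.7 CPM in replicates 1 to 5, both lowest in replicate 1, and Klrd1 had 25.9, 54.5, 70.2, 39.4 and 33.0. Ly49 genes are near-identical to each other, so their separate counts are uncertain. The NK cell genes Ncr1 and Eomes were not analysed here.

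Of 29 listed adhesion and costimulatory genes 17 reached 20 CPM (58.6%, against 48%). Of these, 0 reached an excess CV of 0.3, against 7.55% of all such genes, and their median of 0.16 compared with 0.135 for all such genes. The LFA-1 chains Itgb2 and Itgal stood at 1092 ± 178 and 420.0 ± 50.7 CPM, Itgb7 at 469.7 ± 31.9 and Itgae at 260.2 ± 54.6. Cd27 was at 343 ± 56.9 CPM, the GITR gene Tnfrsf18 at 299 ± 27.9 and Ly9, of the SLAM family, at 295 ± 34.7. Cd44, whose protein rises as NKT cells mature, was at 27.4, 44.0, 47.6, 38.3 and 33.0 CPM in replicates 1 to 5.

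**Figure D2:**
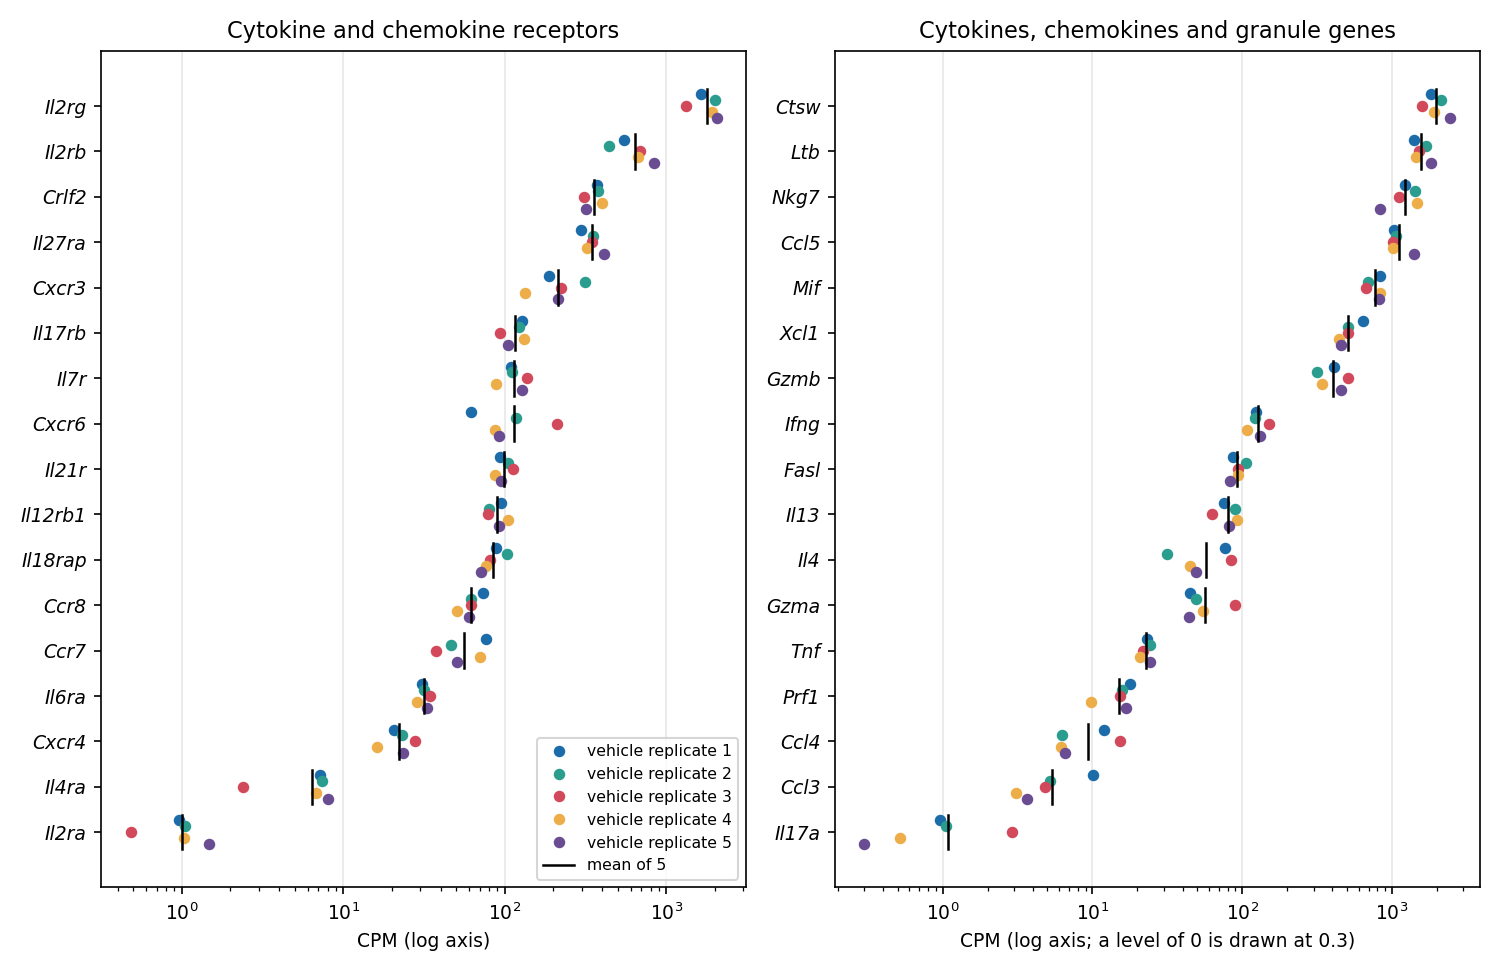
Level of receptors (left) and of cytokine, chemokine and granule genes (right) in each vehicle library, in CPM on a log axis, with a bar at the mean of the 5. Il2rg and Il2rb lie above Il7r and Il17rb, Ifng lies above Il13, Il4 and Tnf, and Il17a and Il2ra are at a few counts.

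Cytokine transcripts were present without stimulation. Of 33 listed ligand genes 15 reached 20 CPM (45.5%, near the 48% of all listed genes). The leaders were Ltb, the lymphotoxin beta gene (1413, 1679, 1519, 1448 and 1818 CPM in replicates 1 to 5), Ccl5 (1038, 1068, 1019, 1013 and 1412) and Mif (769.9 ± 81.4). Xcl1, which draws cross-presenting dendritic cells, was at 636, 509.7, 507, 443 and 460.0 CPM. Ltb exceeded Ccl5, and Ccl5 exceeded Xcl1, in all 5 libraries. Il16 (198 ± 23.1 CPM) and Tgfb1 (196 ± 26.1) followed.

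Among the effector cytokines of the subsets, Ifng was the highest. Ifng had 124, 122, 152, 107 and 131 CPM in replicates 1 to 5. Il13 (chr11:53631324-53634702) had 75.4, 90.2, 63.0, 92.7 and 82.2 CPM and Il4 (chr11:53602982-53618669), its neighbour on chromosome 11, had 76.4, 31.5, 83.7, 44.5 and 49.2. Ifng exceeded both in all 5 libraries. Il13 exceeded Il4 in 3 of 5, and Il4 varied more, from 31.5 CPM in replicate 2 to 83.7 in replicate 3, so these 2 type 2 genes could not be ordered.

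Tnf was at 23.1, 24.1, 21.7, 20.7 and 24.2 CPM in replicates 1 to 5, with no spread beyond counting. Il17a had 0.96, 1.05, 2.89, 0.518 and 0 CPM, which is 0 in replicate 5 and 1 to 6 counts elsewhere. Ccl3 and Ccl4 stood at 5.38 ± 2.76 and 9.3 ± 4.19 CPM. Il2 was not analysed here. Areg, of tissue repair, had a single count, in replicate 2.

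The most abundant granule gene was Ctsw. After it came Srgn, the serglycin core of granules (1862 ± 132 CPM), Nkg7 and Ctsd (975 ± 103). Gzmb was at 409.6, 316, 507, 339.8 and 459 CPM in replicates 1 to 5 and exceeded Gzma (56.5 ± 18.9 CPM) by 5.67 to 10.4 times within a library. Prf1, which encodes perforin, was at 15.1 ± 3.1 CPM, below Gzma in all 5 libraries. Unc13d, needed for granule release, was at 218 ± 41.6 CPM. Granzyme genes share sequence, so the split of counts between them is uncertain.

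Genes of DNA replication and mitosis were expressed in each library. Of 33 listed DNA replication genes 26 reached 20 CPM (78.8%), and of 38 listed mitosis genes 24 did (63.2%), against 48% of all listed genes. Pcna, the polymerase clamp, was at 202, 245, 236, 235 and 194 CPM in replicates 1 to 5. Mcm5, of the replicative helicase, was at 183, 213, 151, 234 and 149 CPM, high in replicates 2 and 4 and low in 3 and 5. Mcm7 (222 ± 62.4 CPM), the thymidine kinase gene Tk1 (156 ± 46.4), the licensing factor gene Cdt1 (151 ± 23.6) and Mcm6 (143 ± 34.5) were close behind.

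For mitosis, the tubulin genes Tubb5 (586 ± 130.1 CPM) and Tuba1b (552 ± 174) led. They were followed by Cenpa, the centromeric histone (306 ± 47.9), Stmn1 (186 ± 24.6), Ube2c, of the anaphase-promoting complex (175 ± 24.8), and Cdca3 (119.8 ± 19.4). Ccnb2, a mitotic cyclin, was at 134, 117, 66.9, 145 and 103 CPM in replicates 1 to 5. Top2a was at 92.2 ± 24.3 CPM. Mki67, the usual marker of cycling cells, was at 39.4, 22.0, 44.7, 36.8 and 13.9 CPM, below Top2a in all 5 libraries and lowest in replicate 5.

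Both lists moved between libraries. The replication list summed to 2404, 2365, 2001, 2659 and 1912 CPM in replicates 1 to 5, and replicate 4 was highest in 13 of its 26 members at 20 CPM or more (50%, against 15.2% of all such genes). Replicate 5 was lowest in 12 of 26, against 15.7%. The mitosis list summed to 3411, 2941, 2914, 3576 and 2754 CPM, and replicates 1 and 4 were each highest in 9 of 24 (37.5%, against 19.7% and 15.2% of all such genes). Replicate 3 was lowest in 13 of the 24, against 36.6%, and replicate 5 was highest in 0 of the 24, against 21.6%. With the GC trend described below removed, replicate 4 was still highest in 12 of the 26 replication genes.

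Several cell cycle promoters carry short known elements, and 4 stretches are shown as examples from division genes described above. The CHR element (TTTGAA) is read by the MuvB complexes that time mitotic genes, and the E2F element (searched as TTTCGCGC and TTTCCCGC) by E2F factors in replication genes. Sequences are from RefSeq (GRCm38.p6) on the transcript's strand, both orientations were searched (TTCAAA is TTTGAA on the other strand) in 300 bases, 250 before to 50 after the annotated start, and capitals mark the element.
Ube2c: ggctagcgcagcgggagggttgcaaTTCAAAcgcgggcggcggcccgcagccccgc
Top2a: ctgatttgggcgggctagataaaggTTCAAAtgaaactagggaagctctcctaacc
Ccnb2: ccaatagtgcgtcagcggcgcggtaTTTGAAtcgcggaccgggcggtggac
Mcm5: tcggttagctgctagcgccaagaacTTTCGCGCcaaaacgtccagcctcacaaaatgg

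They lie at chr2:164769875-164769930, plus strand (Ube2c), chr11:99024182-99024237, minus strand (Top2a), chr9:70421525-70421575, minus strand (Ccnb2) and chr8:75109331-75109388, plus strand (Mcm5). The CHR letters were found in 14 of 19 mitosis genes of at least 20 CPM with a promoter entry (73.7%), in 13.5% of genes of at least 20 CPM and in 20.2% of all genes. The E2F letters were found in 8 of 23 replication genes (34.8%), in 3.53% of genes of at least 20 CPM and in 1.58% of all genes. A match is a description of letters and not a bound site.

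Of 24 listed genes of cell cycle entry and its brakes 12 reached 20 CPM (50%, near the 48% of all listed genes). The D-type cyclins Ccnd3 and Ccnd2 stood at 610.0 ± 83.8 and 556 ± 96.6 CPM and their kinase Cdk4 at 495 ± 61.8. The S phase cyclin Ccne1 was at 20.8 ± 6.06 CPM, and Ccnd3 exceeded it by 22.3 to 52.3 times within a library. Of the brakes, E2f4 was at 221 ± 26.3 CPM, Btg2 at 95.1 ± 18.7 and Cdkn2d at 87.8 ± 13.2.

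Interferon-stimulated genes were expressed in the unstimulated cells. Of 30 listed genes 20 reached 20 CPM (66.7%, against 48%). Ifi27l2a led at 1690.4, 1768, 1624, 1434 and 1640.5 CPM in replicates 1 to 5. Bst2 (tetherin) was at 361 ± 44.5 CPM, Isg15, a ubiquitin-like modifier, at 335, 345, 400.3, 246 and 300.1 in replicates 1 to 5, Zbp1, a sensor of nucleic acids, at 292 ± 10.4 and Irf7 at 283 ± 44.7. Replicate 4 was lowest in 11 of the 20 (55%, against 14% of all such genes), and in no member was it highest.

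The interferon-stimulated response element, searched as a pair of GAAA with any 2 bases between them, binds the ISGF3 complex. It was present in the promoter windows of 10 of the 14 such genes of at least 20 CPM with an entry (71.4%), in 3.98% of genes of at least 20 CPM and in 3.99% of all genes. The stretches of 3 of them are shown in the same way, with the element in capitals; in Isg15 overlapping copies run together.
Isg15: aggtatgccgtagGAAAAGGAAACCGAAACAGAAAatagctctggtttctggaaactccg
Oas3: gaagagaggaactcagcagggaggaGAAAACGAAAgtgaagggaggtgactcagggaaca
Igtp: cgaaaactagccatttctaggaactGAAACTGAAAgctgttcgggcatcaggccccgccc

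They lie at chr4:156200850-156200909, minus strand (Isg15), chr5:120777700-120777759, minus strand (Oas3) and chr11:58199497-58199556, plus strand (Igtp). Oas3, an antiviral oligoadenylate synthetase, was at 169.7 ± 19.6 CPM, and Igtp, an interferon-inducible GTPase, at 173 ± 10.2 CPM, the latter with no spread beyond counting.

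Immediate early and heat shock genes, which also respond to the handling of tissue, reached 20 CPM in 20 of 30 listed members (66.7%, against 48% of all listed genes). Junb was at 1089, 1622, 1562, 1116 and 1369 CPM in replicates 1 to 5, Fos at 176 ± 32.9 and Jun at 186 ± 35.5. Dusp1, a phosphatase that is also a glucocorticoid target, was at 1078 ± 212 CPM, and Hspa8 and Hspa1b at 1898 ± 511 and 389.9 ± 96.4. Their sum ranged from 6861 CPM in replicate 4 to 8334 in replicate 5, and the part of tissue handling was not tested.

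**Figure D3:**
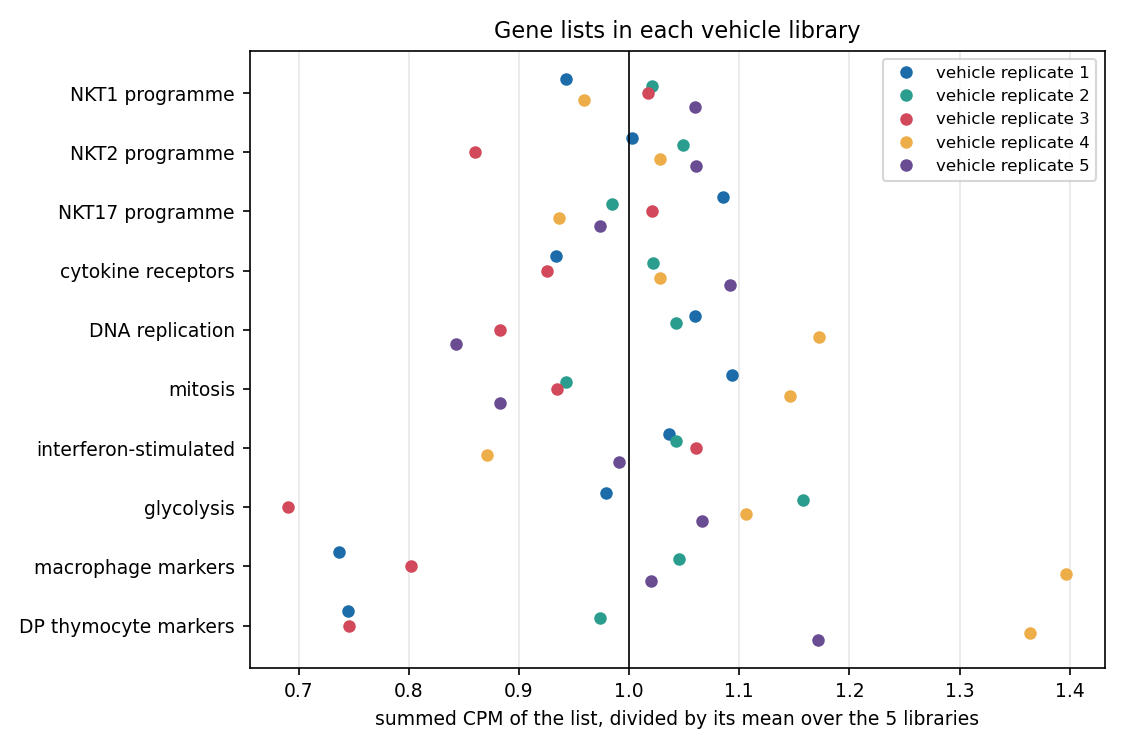
Summed CPM of 10 gene lists in each vehicle library, divided by the list's mean over the 5 libraries. Macrophage and double-positive (DP) thymocyte markers span the widest range, with replicate 4 highest, and glycolysis is lowest in replicate 3.

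Over the 4942 genes of at least 20 CPM the median excess CV was 0.135, and 373 genes (7.55%) reached 0.3. Without replicate 3 the median was 0.0892 and 161 of 4878 genes (3.3%) reached 0.3, of which 115 were also among the 373. Replicate 3 was the highest library in 234 of the 373. Of the 100 genes of largest excess CV it was the highest in 83, against 23.8% of all genes of at least 20 CPM. When it was left out, the highest library of the 100 was replicate 1 in 26, replicate 2 in 33, replicate 4 in 20 and replicate 5 in 21, and only 26 genes were shared with the first 100.

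**Figure D4:**
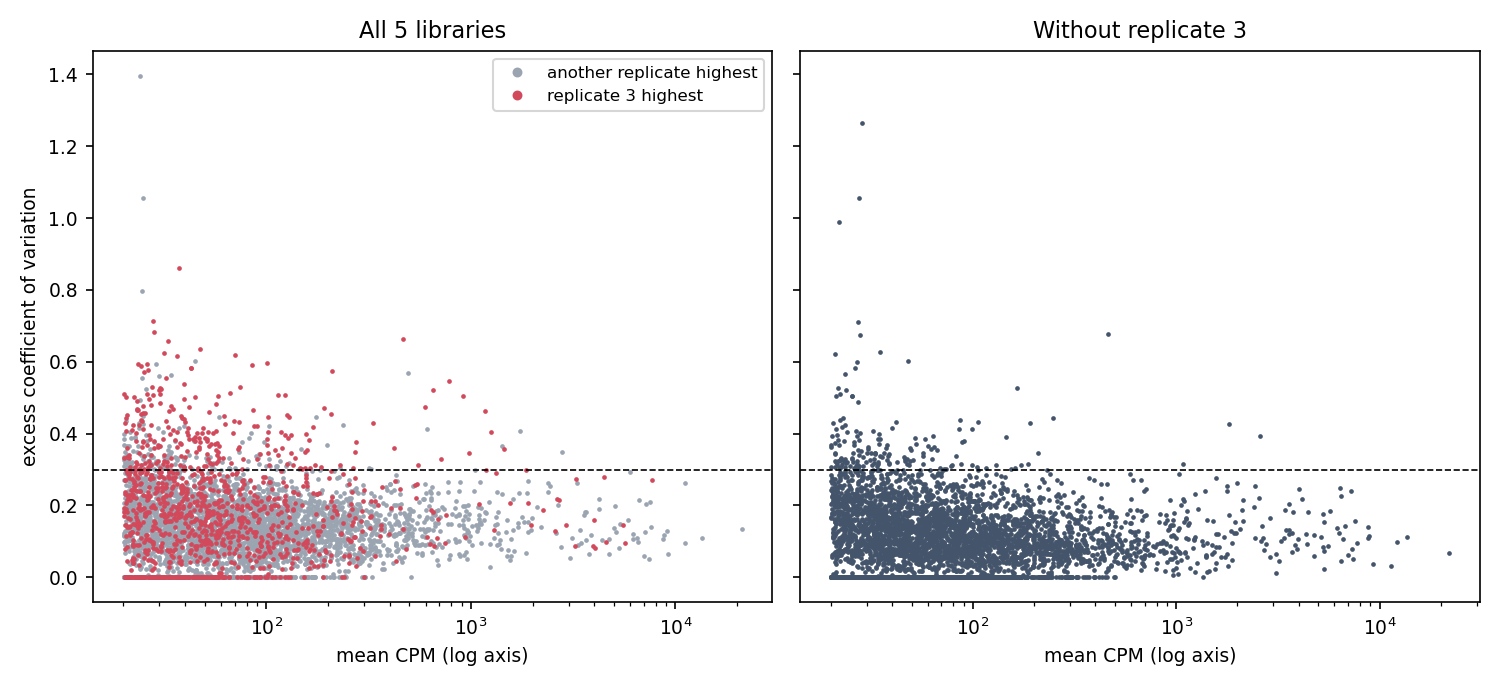
Excess CV of each gene against its mean CPM on a log axis, over all 5 libraries (left, genes with replicate 3 highest in red) and without replicate 3 (right). The dashed line is 0.3, which 373 genes reach on the left and 161 on the right.

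Among the 20 most variable genes, a few stood out in a library other than replicate 3. Ift88, of cilium transport, had 13.9, 83.9, 4.33, 6.73 and 11.0 CPM in replicates 1 to 5, so replicate 2 alone was high. Hsd17b11, a steroid dehydrogenase of lipid droplets, had 13.9, 12.6, 13.0, 72.5 and 12.5 CPM, so replicate 4 alone was high. Both kept an excess CV above 1 without replicate 3 (1.26 and 1.06). Esd and Bzw1 likewise varied among the other 4 libraries, with Bzw1 at 5.28, 54.5, 28.4, 62.2 and 72.6 CPM.

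Others were high in replicate 3. Rps6, a protein of the small ribosomal subunit, had 313, 260.1, 1015, 366 and 381 CPM in replicates 1 to 5 and an excess CV of 0.663, or 0.16 without replicate 3. Hsp90aa1 had 13.0, 21.0, 63.0, 23.3 and 21.3 CPM, and Srp9, of the signal recognition particle, 44.7, 62.9, 147, 53.9 and 41.1. Psma3, Zcchc11, Clint1, Mndal, Eif3e, Dock10, Snhg6, Snrpc, Slc28a2, Fyb, Ndufab1, Scp2 and Rbm22 completed the 20, with replicate 3 the highest library in each. Replicate 3 was 2.54 to 3.83 times the mean of the other 4 in these 13. Psma3 and Eif3e also varied among the other 4 libraries. Without replicate 3 they ranked 9 and 12 among the most variable genes, with gene models left out. Of the 74 ribosomal protein genes of at least 20 CPM, 12 reached 0.3, against 7.55% of all such genes. In 10 of the 12 replicate 3 was the highest, against 62.7% of all genes that reached 0.3.

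In replicate 3, 114 genes stood at 2 or more times the mean of the other 4 libraries, against 3 to 6 genes in any other library. On the low side it did not stand apart at that size, with 40 genes at 2-fold or more below, against 23 to 40 in the others. At 1.5-fold, 425 genes were higher (68 to 91 in the others) and 562 lower (146 to 242). The GC content of the transcript end moved with this. In the 985 genes with the lowest GC in the last 500 transcript bases (21 to 40.2%), the median log2 ratio of replicate 3 to the mean of the other 4 libraries was 0.16, and in the 985 with the highest (53.6 to 80%) it was −0.26. An excess CV of 0.3 was reached by 17.1% of the low-GC genes and 2.94% of the high-GC genes. Replicate 5 ran the other way, from −0.11 to 0.15. Level moved with replicate 3 as well. Its median log2 ratio was 0.01 in the 989 genes of lowest mean CPM and −0.19 in the 989 of highest. An excess CV of 0.3 was reached by 13.9% and 3.74% of these genes. GC content and level were not separated. With each library's median departure removed within 10 equal groups of GC content, an alternative chosen after seeing the data, 329 genes still reached 0.3 and replicate 3 was the highest in 72 of the 100 most variable.

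**Figure D5:**
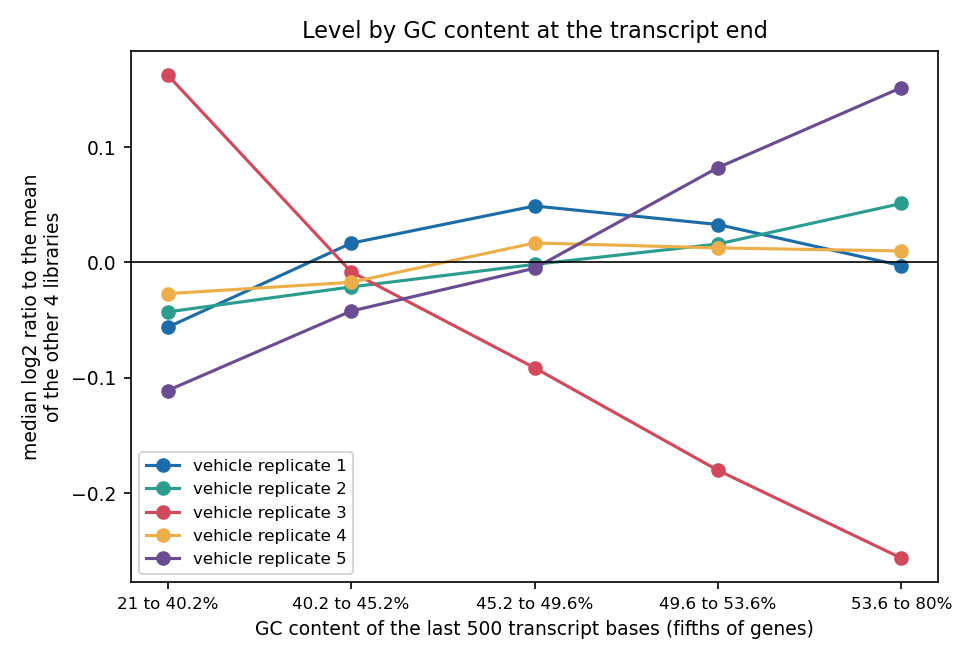
Median log2 ratio of each vehicle library to the mean of the other 4, with 1 CPM added to each, in 5 equal groups of genes by GC content of the last 500 transcript bases. Replicate 3 falls from 0.16 to −0.26 and replicate 5 rises from −0.11 to 0.15.

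Without replicate 3, the lists with members of note among the most variable genes included the Ly49 genes Klra1 and Klra9 and the macrophage gene Lyz2, whose excess CVs were 0.527, 0.439 and 0.445. These were chosen after their values were seen. At the other end, 738 genes of at least 20 CPM showed no spread beyond counting. The 10 of smallest CV were Piezo1, Cdc123, Ganab, Col4a3bp, Lage3, Mrpl46, Cyb561d2, Rpp21, Ggnbp2os and Atp1b3. Their CVs lie below the part expected from counting, so they are not set apart from the rest of the 738. Piezo1, a mechanically gated channel, had 63.9, 65.0, 62.1, 64.7 and 63.8 CPM in replicates 1 to 5, and Atp1b3, a subunit of the sodium pump, 239.6, 237, 248, 239.8 and 227.

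Glycolysis genes were low in replicate 3, which was the lowest library in 8 of the 11 members of at least 20 CPM (against 36.6% of all such genes). Their sum was 7012, 8293, 4945, 7920.4 and 7631 CPM in replicates 1 to 5, and 7626 ± 535 CPM (SD, n = 4) without that library. Aldoa (1010.3 ± 147 CPM), Pkm (952 ± 119) and Ldha (933 ± 188), which act at the middle and end of the pathway, were all lowest there. With the GC trend removed, replicate 3 was still lowest in 7 of 11.

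Markers of other cells were present at low to moderate levels and differed between libraries. Macrophage markers reached 20 CPM in 8 of 14 listed genes (57.1%, against 48% of all listed genes), and their sum was 935, 1327, 1018, 1772 and 1294 CPM in replicates 1 to 5. Apoe, a lipid carrier, had 349.6, 440.5, 313, 633 and 421 CPM, and Lyz2, lysozyme, 146, 282, 185, 392 and 177. The complement genes C1qa, C1qb and C1qc had means of 105, 148 and 92.2 CPM, while Adgre1 and Mrc1 were at 0 to 4.2 CPM. Replicate 4 was the highest library in 7 of the 8 members of at least 20 CPM (against 15.2% of all such genes). It was also highest for DNA replication genes and lowest for interferon-stimulated genes, and the part of other cells in those results was not tested.

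MHC class II genes were highest in replicate 5, with H2-Ab1 at 107, 112, 82.3, 157 and 187 CPM in replicates 1 to 5 and Cd74 at 128, 83.9, 91.9, 139.8 and 157. The B cell gene Cd79b was at 1.92, 2.1, 3.85, 8.81 and 8.07 CPM. The double-positive thymocyte list summed to 144, 188, 144, 263 and 226 CPM, with Dntt, the terminal transferase of receptor gene joining, at 13.4, 29.4, 11.5, 35.2 and 30.1 CPM and Ptcra at 0.48, 2.1, 1.44, 4.66 and 9.54. All 12 of its listed members stood below 100 CPM. Cd1d1, the gene of the presenting protein, was at 18.2, 24.1, 27.9, 15.5 and 21.3 CPM in replicates 1 to 5. Thymic epithelial, erythroid and mast cell lists had no member at 20 CPM.

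Among genes of other T cells, Capg (1305 ± 191 CPM) is expressed by many effector cells, whereas Il2ra and Ctla4 were at 0.999 ± 0.351 and 1.63 ± 0.642 CPM and Ikzf2 at 12.6 ± 7.06. Foxp3 was not analysed here. The conventional single-positive list was led by Igfbp4 (324 ± 61.2 CPM), Ms4a4b (191 ± 90.6) and Klf2. The γδ T cell list held 3 listed genes, of which Cd163l1 was the highest at 43.9 ± 11.3 CPM.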

How the data were processed

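NKT cells were sorted from mouse thymus and libraries were made by bulk MARS-seq from polyadenylated RNA, per the labels' protocols. The submitters' processing notes name the mm10 build and, without saying what each did, HTSeq, STAR 2.5.2b, DESeq2, cutadapt and bcl2fastq. The treatment of molecular identifiers and of strand is not stated in these sources. The authors deposited 1 table for the series with raw counts per gene, which are not normalised, and only the raw counts of the 5 vehicle columns entered the levels. Another 28 per-sample columns of the table were not used. Of 10320 names 17 had become calendar dates and were left out (0.118% to 0.147% of a library's counts).

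Levels are counts scaled to 1000000 (CPM) after TMM scaling over the 5 vehicle libraries (edgeR 4.0.16 in R 4.3.3). Excess CV is the square root of the CV squared of the 5 levels less the mean counting variance, taken as 0 if negative, among genes of at least 20 CPM. The calculation was tested on simulated data. With 1 group there is no contrast, so no test was made and no p-value is given. Genes named were the 20 of highest mean, up to 6 per list with a fixed set of NKT genes, the 20 of largest excess CV and the 10 of smallest CV, leaving out gene models. Other names were chosen after their values were seen, as were some lower members of each list. Some genes that this rule names are not reported here. The members and gene lists were chosen with earlier results of these data known. Coordinates and the last 500 transcript bases are from GENCODE vM21 on mm10, in which 10253 of 10303 names had a transcript. No vehicle libraries were merged, since each pair differed by more than counting noise (chi-square per degree of freedom 2.83 to 10.2). Alternatives were plain library totals, TMM over all 14 libraries, DESeq2 1.42.0 size factors, each library left out, other limits on the mean, edgeR's tagwise dispersion and removal of the GC trend.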

Additional observations from a re-analysis of the deposited data

Results flagged for a closer look

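A library was taken to lie far from the rest where its gap to the nearest other library, divided by the whole range of the 5, exceeded 0.71. Chance alone gives this in about 1 in 20 groups. It was met by 24 of the 224 genes named in the report and by 7.73% of all genes of at least 20 CPM, and the values in brackets are the gap as a share of the range. The named genes include the 20 of largest excess CV in these same libraries, and that choice raises their share. Replicate 3 was the highest library, far from the others, for Clint1 (0.714), Ets1 (0.739), Gzma (0.772), Hsp90aa1 (0.793), Mndal (0.747), Rbm22 (0.896), Rps6 (0.84), Snrpc (0.736), Srp9 (0.793) and Zcchc11 (0.762). Replicate 3 was the lowest library, far from the others, for Cd4 (0.718), Il4ra (0.764), Izumo1r (0.82), Ly9 (0.773), Pkm (0.743) and Thy1 (0.715). For Stat4 (0.732) the library that stood off was replicate 1, as the lowest. For Areg (1) and Ift88 (0.879) the library that stood off was replicate 2, as the highest. For Rpl41 (0.766) the library that stood off was replicate 2, as the lowest. For Hsd17b11 (0.976) the library that stood off was replicate 4, as the highest. For Klrk1 (0.753) the library that stood off was replicate 4, as the lowest. For Ccl5 (0.862) and Ctsd (0.78) the library that stood off was replicate 5, as the highest. The summed NKT2 list was also low in replicate 3, at 0.71. With the GC trend removed, members of at least 20 CPM summed to 4141, 4232, 3946, 4226 and 4127 CPM in replicates 1 to 5. Cd4 was then at 304, 261, 172, 304 and 283 CPM. Replicate 3 stayed lowest for both, by a smaller margin. Rps6 stayed highest in replicate 3, at 1045 CPM against 256 to 383 in the others. Replicate 3 was the outlying library in 17 of the 25 cases, a share raised by the same choice. Areg rests on a single count, and Il4ra was below 9 CPM in every library.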

How the results depend on the processing

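The count of genes with an excess CV of at least 0.3 moved most. It was 373 as reported, 432 with plain library totals, 392 with TMM over all libraries and 377 with DESeq2 size factors. It was 1057 with a mean of at least 5 CPM, 2135 with no limit on the mean, 146 with a mean of at least 50 CPM and 34 with edgeR's tagwise dispersion, which draws each gene towards the common trend. With the GC trend removed, chosen after seeing the data, it was 329 and the median 0.125 (0.135 as reported). With each library left out in turn it ran from 161 (without replicate 3) to 483, and the median excess CV from 0.0892 (without replicate 3) to 0.142. The summed NKT1 list was 9688 CPM as reported and 10224 with TMM over all libraries, under which the other list sums were also higher. With each library left out the sums and shares stayed within 1 SD. A mean moves by less than 1 SD when 1 of its 5 values is dropped, so this outcome was nearly fixed. Of 224 gene levels, 12 moved by more than 1 SD with TMM over all libraries and none under the other 7 settings. For the settings that left out a library this was nearly fixed as well. No paired analysis was possible because 1 group is described.

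Depth limits the lowest genes: a count of 0 allows up to 3 counts, or 1.44 to 3.15 CPM. Genes below about 5 CPM rest on a few counts. The cause of the distance of replicate 3 was not tested.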

Other observations

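Leaving out host genes, 22 rows carried the name of a microRNA, with 0.101% to 0.185% of a library's counts. Mir703 had 632, 451, 599, 571 and 772 CPM in vehicle replicates 1 to 5. Mir682 had 902, 339.8, 584, 154 and 475 CPM, highest in replicate 1 and lowest in replicate 4, with an excess CV of 0.569. Counts in such a row do not measure the mature microRNA.

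The nuclear long noncoding RNAs Neat1 and Malat1 stood at 85.5 ± 5.93 and 74.7 ± 21.8 CPM. Neat1 showed no spread beyond counting, while Malat1 ran from 50.5 to 109 CPM, lowest in replicate 3 and highest in replicate 2. The histone H3.3 gene H3f3a had 141, 133, 422, 182 and 169 CPM in replicates 1 to 5, with replicate 3 the highest, and an excess CV of 0.573, or 0.132 without that library.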
